A study of Mus musculus with 32 samples.

Results

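Transcript levels at the crests of the mouse segmentation clock were compared with the low between them in the time course named Ex5. The comparison rests on 8 of the 32 libraries of the series. The first Hes7 peak is held by the 3 libraries at 225, 240 and 255 min, the second by the 2 libraries at 365 and 385 min, and the trough by the 3 libraries at 285, 305 and 325 min. These times were chosen from the measured levels of Hes7, its luciferase reporter and Lfng. Those 3 transcripts were in the same fit but are described without a p-value. The other 11769 genes that passed an expression filter were tested. The 2 peak blocks were given equal weight. Their mean times average 307.5 min, against 305 min for the trough, so a linear drift over time nearly cancels.

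The series followed presomitic mesoderm (PSM) grown in dishes from mouse epiblast stem cells, pluripotent cells of the postimplantation embryo, to find the molecular parts of the clock. All libraries came from the same reporter line, built on AES0204 cells and carrying Hes7-luciferase, with no other allele and no untreated control. All dishes had received SB431542 (a TGF-β receptor inhibitor), LDN193189 (a BMP receptor inhibitor), CHIR99021 (a GSK3 inhibitor that activates Wnt signalling) and bFGF, and the CHIR99021 dose was then lowered with the other 3 agents kept. Each library is 1 dish frozen at its own time, 16 dishes in Ex5 and 16 in the separate time course Ex4, so the libraries of a block are neighbouring times and not repeats of 1 time. The p-values below therefore measure the spread between neighbouring dishes. In RNA of whole dishes, a change in the share of cells and a change in RNA per cell cannot be told apart.

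As background, the segmentation clock is an oscillator in PSM cells that times the formation of somites. Hes7 is a repressor that shuts off its own gene, Notch signalling couples neighbouring cells and drives Hes genes through the DNA-binding protein RBPJ, and FGF and Wnt signalling keep the cells in the oscillating state. Genes of the Notch and FGF branches and genes of the Wnt branch are known to cycle out of step with each other in mouse PSM.

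Hes7 read 347, 341 and 371 CPM (counts scaled to library size, with TMM factors) at the first peak, 208, 226 and 186 CPM in the trough and 346 and 437 CPM at the second peak. The luciferase transcript read 27.7, 31.2 and 25.9 CPM at the first peak, 17.7, 16.0 and 17.4 CPM in the trough and 29.7 and 27.3 CPM at the second peak. Lfng, a glycosyltransferase that modifies Notch receptors, read 142, 140.2 and 111 CPM, then 51.2, 44.8 and 65.4 CPM, then 159 and 161 CPM. All 3 transcripts were higher in every peak library than in every trough library, which is what the choice of libraries required. The log2 change from trough to peaks was 0.85 ± 0.07 (SE) for Hes7, 0.73 ± 0.07 for luciferase and 1.42 ± 0.09 for Lfng. These SEs come from the fit used for the other genes, and the choice of libraries favours the changes. The libraries next to the blocks were left out. Of these, the libraries at 210 and 345 min held 317 and 334 CPM of Hes7, close to the peaks, and the library at 270 min held 226 CPM, the level of the trough. The antisense gene 9130213A22Rik overlaps Hes7 and was listed at 0.712 to 1.99 CPM in the 8 libraries.

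**Figure D1:**
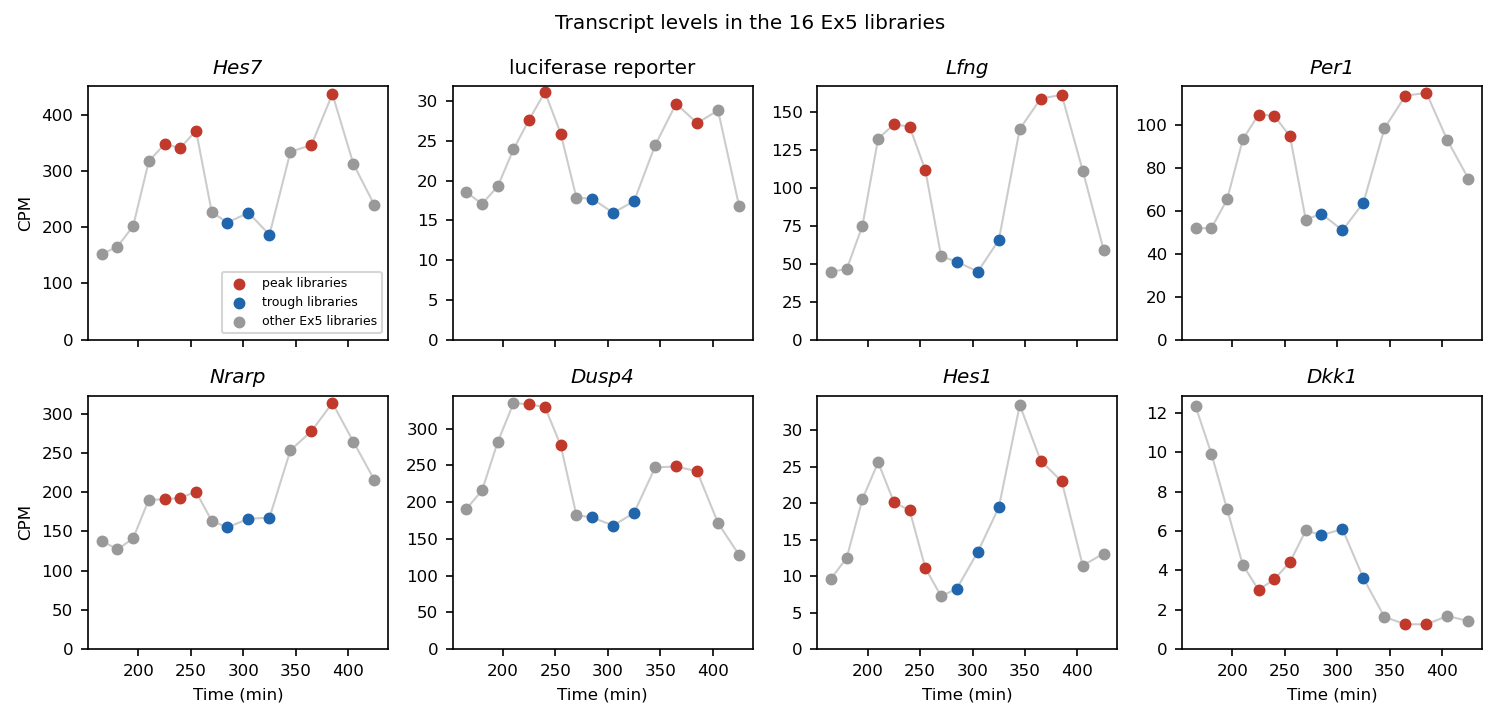
CPM (vertical axis, starting at 0) against time in min for 8 transcripts in the 16 Ex5 libraries, with peak libraries in red, trough libraries in blue and the others in grey. Per1 follows Hes7 and Lfng through both peaks, Nrarp climbs highest at the second peak (278 and 314 CPM), Hes1 goes down within the first peak block and up within the trough, and Dkk1 goes down over the course with a local high of 5.79 and 6.10 CPM in the trough.

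The cells carried PSM markers in both phases. Tbx6 lay between 548 and 611 CPM in the peak libraries and between 573 and 591 CPM in the trough, and T (brachyury) between 493 and 641 CPM and between 526 and 579.7 CPM. Of the markers of other fates, Olig2, Sox17, Nanog, Tal1 and Pecam1 stayed under 0.6 CPM in the 8 libraries, with Olig2, Sox17 and Nanog at 0 in at least 1 of them, and Foxa2, Kdr and Sox1 stayed under 2 CPM. The neural marker Pax6 was present at 10.3 to 13.7 CPM, and 2 further genes of the neural and endoderm lists, Irx3 and Cxcr4, reached 44.5 and 49.9 CPM. Their part in the results was not tested. Pou5f1, an epiblast gene, went from 53.04 CPM at 225 min to 26.6 CPM at 385 min, with a peaks-minus-trough log2 change of -0.06 ± 0.06 that did not pass the test. Depth was 16.1 to 28.6 M counts, and the 2 libraries of the second peak (16.1 and 17.7 M) were the shallowest.

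Genes rich in G and C read higher in the peak libraries. The GC tilt of a library, the median log2 deviation of the quartile of genes richest in GC minus that of the poorest quartile, was 0.0177 to 0.115 in the 5 peak libraries and -0.0252 to 0.00291 in the 3 trough libraries, with no overlap. In the 9 Ex4 libraries used below, the tilt did not separate in this way (-0.124 to 0.0793 at the peaks and -0.0122 to 0.117 in the trough). Nor did it in Ex5 outside the blocks. It was 0.1 and -0.0108 at 210 and 345 min, with Hes7 close to its peak level. At 165, 180 and 425 min, with low Hes7, it was -0.0163, -0.11 and 0.161. A fit that corrects each library for GC content and transcript length was therefore added after the data had been seen, and its adjusted p is given beside most named calls that it ends.

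Of the 11769 genes, 72 were higher at the peaks (0.612%) and 15 were lower (0.127%), together 0.739%, at an adjusted p under 0.05 (edgeR's quasi-likelihood test with Benjamini-Hochberg adjustment over all genes). At an unadjusted p under 0.05 there were 1300 genes. The changes were small: the median was 1.26-fold among the higher genes and 1.2-fold among the lower ones, and 8 higher and 2 lower genes changed by at least 1.5-fold. The 8 were Per1, Lhx1, Epha2, Dusp4, Hes5, Junb, Egr3 and the growth factor gene Pdgfb, and the 2 were Dkk1 and Fgf20, a ligand gene at 0.634 to 2.65 CPM. The calls of Pdgfb and Fgf20 were lost with the GC and length correction (0.0932 and 0.0588) and in most fits without 1 library (highest adjusted p = 0.319 and 0.202). Pdgfb was also lost after thinning (0.101) and Fgf20 by DESeq2 (0.0515). Every peak library lay above every trough library for 51 of the 72 genes, against 2.47% of all genes, and below for 10 of the 15, against 2.51%. The genes were picked by a test on the same 8 libraries, which favours such shares, so they add no support. In 7 of the other higher genes the first peak alone was clear of the trough, and in 14 the second peak alone. The count of higher genes fell to 13 without the library at 385 min and rose to 130 without that at 255 min, and the lower count went to 3 and 52. Leaving out the library at 225, 240, 285, 305, 325 or 365 min also moved the counts by over 1.5 times, to between 28 (without 325 min) and 120 (without 285 min) higher genes and between 7 and 29 lower genes. Of the 87 genes, 16 passed in all 8 such fits, 13 higher and 3 lower. With the 5 peak libraries as 1 group, where the difference between the peaks counts as spread, 6 genes were higher (Per1, Epha2, Dusp4, Efna1, Gse1 and Snai1) and 0 lower, with 755 at an unadjusted p under 0.05. The other named genes did not pass in that fit, with adjusted p-values of 0.0516 (Fzd1) to 0.770 (Msgn1). Without a filter on low counts 175 were higher and 77 lower. With the GC and length correction 29 genes were higher and 12 lower, so that 70.7% of calls were higher against 82.8% without it. Of the 72 and the 15 genes, 29 and 9 passed there too. The median GC content was 57.2% for the 72 genes, 46.0% for the 15 and 49.8% for all.

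**Figure D2:**
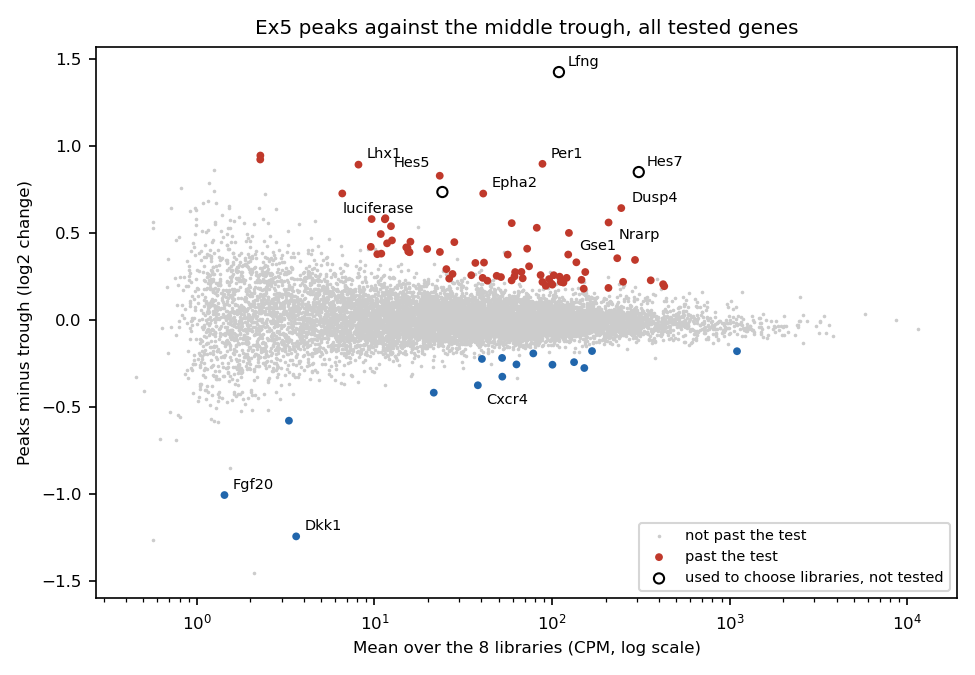
Log2 change, peaks minus trough, against the mean CPM of the 8 Ex5 libraries (log axis), 1 point per gene. The 72 genes past the test above 0 are red, the 15 below 0 blue, genes that did not pass are grey, and open circles mark the 3 transcripts that chose the libraries. The red points outnumber the blue ones, and most of both lie within 0.5 of 0.

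Per1 had the smallest adjusted p. It encodes a repressor of the circadian clock and lies on chromosome 11 (69095217 to 69109960, plus strand, GENCODE M21 on mm10), 10.4 kb from Hes7 (69120404 to 69124055, plus strand). Per1 read 105, 104 and 94.7 CPM at the first peak, 58.7, 50.9 and 63.8 CPM in the trough and 114 and 115 CPM at the second. The 5 peak values all lay above the trough, with a gap wider than the spread within any block. The fold was 1.86 (log2 0.90 ± 0.06 SE, adjusted p = 2.22e-08), and the call held in all 8 fits that left out a library (highest adjusted p = 5.62e-07). In Ex4 the log2 change was 0.65 ± 0.05 (adjusted p = 3.35e-11).

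Over all tested genes, 0.612% rose and 0.127% fell, which is the background for the list counts here and below. Of the 15 tested circadian genes, 3 rose and 0 fell, and the median log2 change of the list was 0.09 against 0.00 for all genes. Beside Per1 these were Ciart, a repressor of the CLOCK and BMAL1 pair, and Dbp, a transcription factor that this pair drives. Ciart read 17.5, 17.4 and 19.6 CPM, then 12.7, 13.2 and 11.8 CPM, then 15.6 and 14.9 CPM (log2 0.41 ± 0.08, adjusted p = 0.00997). Dbp read 10.3 to 11.3 CPM at the first peak, 9.06 to 9.52 CPM in the trough and 13.2 and 14.1 CPM at the second (log2 0.38 ± 0.08, adjusted p = 0.0252). In Ex4 neither passed the test (0.16 and 0.14 on the log2 scale). The call of Ciart was lost without the library at 325 or 385 min (highest adjusted p = 0.0887), and that of Dbp without those at 240, 305, 325, 365 or 385 min (0.179), after thinning to equal depth (0.109) and with the GC and length correction (0.109). The core clock genes Cry1 and Arntl did not pass: Cry1 differed by 0.03 ± 0.04 and Arntl by -0.01 ± 0.11 on the log2 scale.

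The stretches around the starts of Hes7, Lfng, Per1 and the Notch feedback gene Nrarp are shown because these genes were high together at both peaks and DNA-binding sites of the pathway can be looked for in them. Each run is RefSeq sequence on GRCm38.p6, 5′ to 3′ on the gene's own strand, from 250 bases before to 50 after an annotated start. Capitals mark 3 motifs searched on both strands: TGGGAA, the core bound by RBPJ (TTCCCA on the other strand), the E box CACGTG, and CACGCG, a site class bound by Hes repressors (CGCGTG on the other strand). All lie on the plus strand, at chr11:69120203-69120502 for Hes7, chr5:140607091-140607390 for Lfng, chr11:69098699-69098998 and chr11:69099902-69100201 for the Per1 starts, and chr2:25180508-25180807 for Nrarp.
Hes7: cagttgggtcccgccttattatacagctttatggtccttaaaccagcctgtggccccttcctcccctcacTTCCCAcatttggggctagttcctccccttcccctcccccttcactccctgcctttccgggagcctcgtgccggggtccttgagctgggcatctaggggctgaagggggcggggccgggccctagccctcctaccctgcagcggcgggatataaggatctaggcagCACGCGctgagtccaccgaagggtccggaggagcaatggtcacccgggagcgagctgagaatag
Lfng: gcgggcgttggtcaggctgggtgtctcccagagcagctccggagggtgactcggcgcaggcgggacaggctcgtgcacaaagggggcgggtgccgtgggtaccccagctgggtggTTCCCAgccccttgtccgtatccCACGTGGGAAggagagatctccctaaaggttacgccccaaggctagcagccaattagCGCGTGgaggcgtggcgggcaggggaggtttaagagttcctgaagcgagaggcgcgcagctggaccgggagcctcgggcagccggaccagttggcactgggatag
Per1, upstream start: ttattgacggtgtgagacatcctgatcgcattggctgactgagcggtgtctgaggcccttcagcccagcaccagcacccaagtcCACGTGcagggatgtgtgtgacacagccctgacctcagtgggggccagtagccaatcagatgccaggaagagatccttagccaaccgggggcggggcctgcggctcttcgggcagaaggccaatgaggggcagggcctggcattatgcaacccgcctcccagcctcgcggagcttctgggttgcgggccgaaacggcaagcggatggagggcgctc
Per1, downstream start: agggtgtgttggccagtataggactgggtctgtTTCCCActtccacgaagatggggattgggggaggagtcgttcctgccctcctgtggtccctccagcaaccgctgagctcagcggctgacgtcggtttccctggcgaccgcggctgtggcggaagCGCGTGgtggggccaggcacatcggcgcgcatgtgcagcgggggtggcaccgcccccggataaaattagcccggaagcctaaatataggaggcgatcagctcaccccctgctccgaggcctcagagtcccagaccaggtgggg
Nrarp: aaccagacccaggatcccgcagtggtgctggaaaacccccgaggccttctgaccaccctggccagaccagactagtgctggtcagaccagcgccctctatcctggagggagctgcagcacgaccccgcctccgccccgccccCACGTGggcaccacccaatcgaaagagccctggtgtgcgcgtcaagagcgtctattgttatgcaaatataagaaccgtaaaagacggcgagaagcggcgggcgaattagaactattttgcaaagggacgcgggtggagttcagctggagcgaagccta

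Lfng held 4 matches, at -135, -112, -108 and -55 from its start, and the E box at -112 overlaps the TGGGAA at -108. Hes7 held TTCCCA at -180 and CACGCG at -14. The upstream Per1 start held the E box at -166, the downstream start TTCCCA at -217 and CGCGTG at -93, and Nrarp held the E box at -108. Of the 90 genes past the test or used to choose libraries, 72 had a promoter in the table. Among the 73 promoters of genes that were higher, TGGGAA stood in 12 (16.4%), CACGTG in 10 (13.7%) and CACGCG in 22 (30.1%). The shares were 22.9%, 10.1% and 17.8% over the 11960 promoters of all tested genes, and 25.6%, 7.15% and 9.27% over all 32851 promoters of this length. The part of GC content, which was high among the higher genes, in these shares was not tested, and a match is a description of letters only.

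In the Notch pathway, 2 of 23 tested genes rose and 0 fell, with a median log2 change of 0.06. Nrarp, which is a Notch target and dampens Notch signalling, read 191, 193 and 200.5 CPM at the first peak, 155, 166 and 167 CPM in the trough and 278 and 314 CPM at the second peak. The peaks did not overlap the trough, and most of the difference came with the second peak. Nrarp read 138, 127 and 216 CPM at 165, 180 and 425 min, when Hes7 was low. The last of these lay above every library of the first peak. The log2 change was 0.56 ± 0.04 (adjusted p = 3.13e-07), made of 0.26 at the first peak and 0.86 at the second against the same trough. The receptor gene Notch1 read 283, 294 and 263 CPM, then 268, 243 and 252 CPM, then 367 and 374.6 CPM (log2 0.34 ± 0.04, adjusted p = 0.000217). Here the first peak overlapped the trough and the second lay far above it, while the outer low libraries at 165 and 180 min held 194 and 221 CPM and that at 425 min 344 CPM. With those 3 outer libraries and a quadratic time term added, the changes were 0.52 for Nrarp and 0.31 for Notch1, and both passed. Neither passed with the 5 peak libraries as 1 group (0.473 and 0.537). In Ex4, Nrarp rose by 0.35 ± 0.04 on the log2 scale (adjusted p = 3.38e-07) and Notch1 differed by 0.11 ± 0.05 (adjusted p = 0.450). The first Ex4 peak of Nrarp overlapped the trough (123 to 141 against 115 to 125 CPM). Its second Ex4 peak lay above both, at 174 to 182 CPM.

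The ligand genes did not pass. Jag1 was above the trough in all 5 peak libraries (37.4 to 44.5 against 31.3 to 35.2 CPM), at log2 0.26 ± 0.06 and an adjusted p of 0.0510. Dll1 read 1005 to 1068 CPM at the peaks and 935 to 1017 CPM in the trough (0.10 ± 0.04, adjusted p = 0.309), and Dll3 differed by 0.05 ± 0.05.

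Of 11 tested Hes, Hey and Id genes other than Hes7, 1 rose and 0 fell, with a median log2 change of 0.18. It was Hes5, a repressor and Notch target, at 28.9, 24.1 and 18.5 CPM, then 13.1, 12.8 and 21.4 CPM, then 36.4 and 31.2 CPM. Hes5 was lower at the end of the first peak block than at its start and higher at the end of the trough than at its start, so the blocks overlap. Its fold was 1.77 (log2 0.83 ± 0.14, adjusted p = 0.00662), with an adjusted p of 0.101 by DESeq2. The Ex4 change of Hes5, 0.23 on the log2 scale, did not pass. Its Ex4 means were 16.5 CPM at the first peak, 16.0 CPM in the trough and 21.6 CPM at the second peak. Hes1, a further repressor driven by Notch, read 20.1, 19.0 and 11.1 CPM, then 8.29, 13.3 and 19.4 CPM, then 25.8 and 23.0 CPM. Its lowest library in this stretch was at 270 min (7.23 CPM) and its highest at 345 min (33.4 CPM), both outside the blocks, and its log2 change of 0.53 ± 0.19 did not pass (adjusted p = 0.284). Hey1 read 11.2 to 16.4 CPM at the peaks and 10.4 to 12.1 CPM in the trough (0.24 ± 0.08, adjusted p = 0.241), and it rose in Ex4 (0.33, adjusted p = 0.0417).

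Of 30 tested genes of FGF and ERK signalling, 7 rose and 1 fell (0.612% and 0.127% over all genes), with a median log2 change of 0.06. The 7 were Dusp2, Dusp4, Dusp6, Spry4, Snai1, Efna1 and Epha2. Dusp4, a phosphatase that switches off ERK and is induced by it (chromosome 8, 34807297 to 34819894, plus strand), read 333, 329 and 277 CPM at the first peak, 179, 168 and 185 CPM in the trough and 248 and 242 CPM at the second peak. The first crest was higher than the second, and both were clear of the trough. The fold was 1.56 (log2 0.64 ± 0.05, adjusted p = 5.99e-07), and in Ex4 the change was 0.50 ± 0.05 (adjusted p = 1.2e-08). Spry4, an inhibitor of the pathway, read 301, 278 and 240.2 CPM, then 204, 186 and 197 CPM, then 225 and 232 CPM (log2 0.35 ± 0.06, adjusted p = 0.00308). The low libraries at 165, 180 and 425 min held 281, 293 and 248 CPM, more than the second peak, and with them and a quadratic time term the change was 0.25 (adjusted p = 0.0112). With the 5 peak libraries as 1 group Spry4 did not pass (0.196). Dusp6, a phosphatase selective for ERK, rose by a smaller amount, 246 to 281 CPM at the peaks against 221 to 238 CPM (0.22 ± 0.05, adjusted p = 0.0284). With the outer low libraries and a quadratic time term its adjusted p was 0.0747. Dusp2 read 15.9, 17.7 and 17.6 CPM at the first peak, 8.03, 9.33 and 6.74 CPM in the trough and 8.20 and 8.63 CPM, the trough level, at the second (log2 0.58 ± 0.10 over both peaks, adjusted p = 0.00662). It was as high before the first peak, at 20.2 and 16.8 CPM at 165 and 180 min, when Hes7 was low. Snai1, a repressor known to cycle in the PSM, read 75.1 to 83.4 CPM at the peaks and 54.3 to 65.9 CPM in the trough (0.41 ± 0.05, adjusted p = 0.000353). Of the outer low libraries, those at 165 and 180 min held 61.2 and 60.8 CPM of Snai1. That at 425 min held 87.1 CPM, more than any peak library. The calls of Dusp4, Spry4 and Snai1 held without any library. That of Dusp2 was lost without the library at 325 or 385 min (highest adjusted p = 0.0684) and that of Dusp6 without those at 225, 240, 305, 365 or 385 min (0.137). Of the same 30 genes, 4 passed as higher and 1 as lower in Ex4. The Ex4 log2 changes were 0.42 for Dusp2, 0.12 for Dusp6, 0.11 for Spry4 and 0.20 for Snai1.

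Other targets of the same pathway did not pass. Etv4 (0.00 ± 0.04), Etv5 (0.01 ± 0.03), Spry2 (0.08 ± 0.05) and the ligand genes Fgf8 (0.11 ± 0.05) and Fgf17 (0.04 ± 0.05) all had adjusted p-values between 0.374 and 0.993. The ligand gene Fgf4 fell, from 55.8, 67.0 and 55.3 CPM in the trough to 51.1, 53.6 and 49.7 CPM at the first peak and 43.7 and 43.4 CPM at the second. It was lower in all 5 peak libraries than in the trough (1.25-fold, log2 -0.33 ± 0.06, adjusted p = 0.00927). It was lower in Ex4 as well (-0.20 ± 0.04, adjusted p = 0.00751), but there the first peak overlapped the trough (59.8 to 66.3 against 64.3 to 66.1 CPM). The second peak of Ex4 lay below both, at 48.6 to 52.4 CPM. In Ex5, Fgf4 also went down over the course, from 61.6 CPM at 165 min to 40.7 CPM at 425 min, both with low Hes7. Its call was lost without the library at 305 or 385 min (highest adjusted p = 0.0713).

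Ephrins and Eph receptors, the membrane ligands and receptors that set boundaries between cell groups, had 4 of 18 tested genes rising and 0 falling, with a median log2 change of 0.02. Efna1 and Epha2 are also in the FGF and ERK list. The receptor gene Epha2 read 56.3, 46.9 and 39.7 CPM, then 29.2, 26.8 and 31.3 CPM, then 48.7 and 48.8 CPM (1.65-fold, log2 0.72 ± 0.09, adjusted p = 9.81e-05). The ligand gene Efna1 read 101, 94.8 and 86.4 CPM, then 59.3, 59.6 and 72.9 CPM, then 94.3 and 87.5 CPM (1.44-fold, log2 0.53 ± 0.06, adjusted p = 0.000162). Both were lower at the end of the first peak block than at its start, and all peak libraries were above the trough. They rose in Ex4 too, by 0.45 and 0.47 on the log2 scale. Efna3 rose by 0.41 ± 0.07 (adjusted p = 0.00551), a call lost without the library at 325 or 385 min (highest adjusted p = 0.0579). It read 26.7, 18.5 and 20.2 CPM at 165, 180 and 425 min, when Hes7 was low, against 19.7 to 23.6 CPM at the peaks. Ephb3 read 31.6 to 35.0 CPM at the first peak, 23.1 to 25.0 CPM in the trough and 24.3 and 24.4 CPM at the second peak, and it was as high before the first peak (38.3 and 33.3 CPM at 165 and 180 min). Its call (0.26 ± 0.06, adjusted p = 0.0370) was lost by DESeq2 (0.0515), with the GC and length correction (0.235) and without any of the libraries at 225, 240, 305, 325, 365 or 385 min (highest 0.217).

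Of 23 immediate early genes, transcription factor genes that respond within minutes to ERK and other signals, 4 rose and 0 fell, with a median log2 change of 0.15. Egr1 read 80.2, 67.0 and 49.3 CPM, then 38.8, 43.3 and 55.3 CPM, then 73.2 and 67.0 CPM (0.55 ± 0.12, adjusted p = 0.0284), and Junb 8.60, 7.48 and 5.31 CPM, then 3.96, 4.71 and 5.39 CPM, then 8.33 and 8.92 CPM (0.73 ± 0.14, adjusted p = 0.0194). Both were lower at the end of the first peak block than at its start and the reverse in the trough, so that the library at 255 min was under that at 325 min. Egr3 read 2.15 to 3.21 CPM at the peaks and 1.35 to 1.68 CPM in the trough (0.92 ± 0.19, adjusted p = 0.0199), and Fosl2 15.1 to 20.2 CPM against 12.1 to 14.4 CPM (0.45 ± 0.09, adjusted p = 0.0199). At 165, 180 and 425 min, when Hes7 was low, Egr1 read 80.6, 90.3 and 69.0 CPM and Egr3 3.18, 3.28 and 2.75 CPM. Fosl2 read 17.2, 13.8 and 21.9 CPM there, and Junb 6.04, 6.12 and 4.95 CPM. In Ex4, Egr1 (0.33, adjusted p = 0.00475) and Junb (0.49, adjusted p = 0.0397) passed. All 4 calls were lost without the library at 225, 305 or 385 min, with highest adjusted p-values of 0.111 to 0.224. Junb and Egr1 were lost without that at 240 min too, Egr1 without that at 365 min, and Egr3 and Fosl2 without that at 325 min. The GC and length correction ended the calls of Egr1 (0.0929), Junb (0.0832) and Fosl2 (0.0546), and Egr1 also did not pass by DESeq2 (0.272).

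Among 32 Wnt targets and regulators, 2 rose and 2 fell, with a median log2 change of -0.01. Dkk1, a secreted Wnt inhibitor and Wnt target (chromosome 19, 30545863 to 30549665, minus strand), read 3.00, 3.55 and 4.42 CPM at the first peak, 5.79, 6.10 and 3.59 CPM in the trough and 1.26 and 1.26 CPM at the second peak. It was lower at the peaks, but its level also went down over the course, from 12.3 CPM at 165 min to 1.42 CPM at 425 min, and the trough library at 325 min lay within the first peak's range. The fold was 2.37 (log2 -1.24 ± 0.19, adjusted p = 0.00290), made of -0.47 at the first peak and -2.02 at the second, and -1.12 with the outer low libraries and a quadratic time term (adjusted p = 0.000178). In Ex4 it was -0.59 ± 0.13 (adjusted p = 0.0157). Sp5, a transcription factor induced by Wnt, read 126, 118 and 133 CPM, then 139, 159 and 143 CPM, then 121 and 125 CPM (-0.24 ± 0.05, adjusted p = 0.0174), and in Ex4 it fell by 0.19 on the log2 scale (adjusted p = 0.0153). Its call was lost without the library at 225, 305, 365 or 385 min (highest adjusted p = 0.102). Axin2, a negative regulator and standard Wnt readout, read 169.5 to 202 CPM at the peaks and 191 to 211 CPM in the trough (-0.11 ± 0.04, adjusted p = 0.319). It passed in Ex4 at -0.17 (adjusted p = 0.00414).

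The 2 Wnt list genes that rose were Nkd1, an inhibitor of the pathway (0.22 ± 0.05, adjusted p = 0.0329), and Cdx2, a homeobox gene of the posterior embryo (0.19 ± 0.04, adjusted p = 0.0252). Cdx2 read 497, 467 and 448 CPM, then 393, 399 and 379 CPM, then 416 and 428 CPM. All its peak libraries were above the trough, the first peak by more. Both calls were lost with the GC and length correction (0.101 and 0.109) and without the library at 225, 325 or 385 min. Nkd1 was also lost without that at 285 min and Cdx2 without that at 240 or 365 min (highest adjusted p = 0.286 and 0.185). Nkd1 read 84.2, 71.8 and 105 CPM at 165, 180 and 425 min, when Hes7 was low, the last above every peak library. Fzd1, a Wnt receptor gene that was in no list, fell with little spread: 59.5, 57.1 and 60.7 CPM, then 71.1, 70.3 and 69.1 CPM, then 58.5 and 58.1 CPM (1.19-fold, log2 -0.26 ± 0.04, adjusted p = 0.00438). In Ex4 it fell by 0.31 (adjusted p = 9.32e-05), with every peak library below every trough library there too.

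Of 15 PSM and tailbud genes, 1 rose (Cdx2) and 1 fell, with a median log2 change of 0.08. Msgn1, a transcription factor of the posterior PSM, read 105, 104 and 108 CPM, then 106, 113 and 109 CPM, then 86.4 and 72.0 CPM (-0.26 ± 0.05, adjusted p = 0.0133). The first peak was at trough level, and the difference came from the second. In Ex4 all peak libraries were below the trough (-0.21 ± 0.04, adjusted p = 0.00605). The Ex5 call was lost without the library at 305, 325 or 385 min (highest adjusted p = 0.137). Cyp26a1, which breaks down retinoic acid, read 33.4 to 45.7 CPM at the peaks and 31.7 to 38.4 CPM in the trough (0.15 ± 0.06, adjusted p = 0.348), and it rose in Ex4 (0.27, adjusted p = 0.00146).

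**Figure D3:**
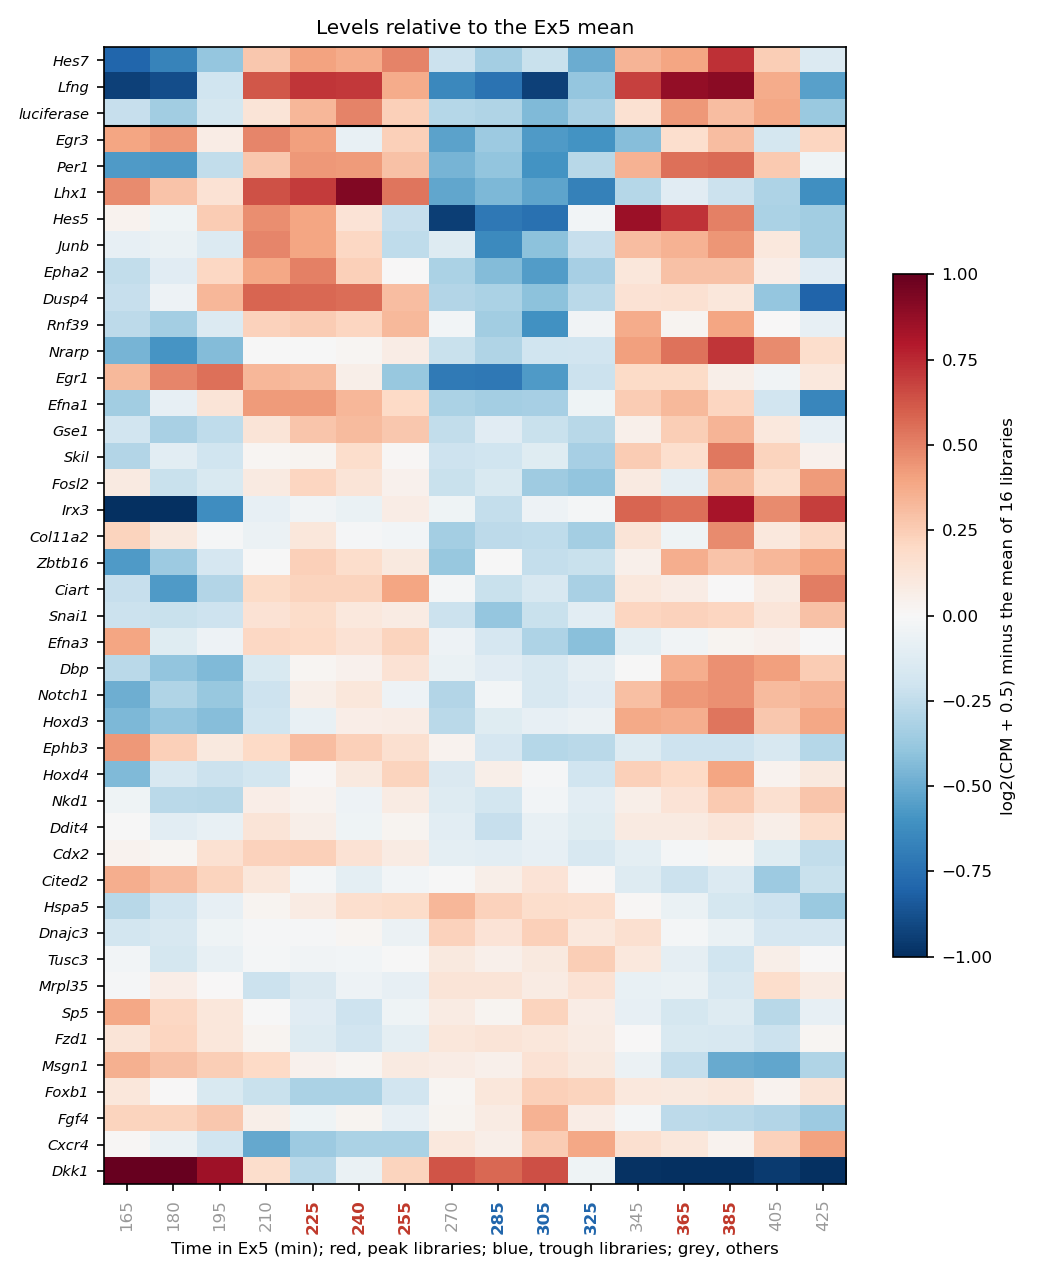
Log2(CPM + 0.5) of the 3 transcripts that chose the libraries (above the line) and of the 40 named genes (rows, ordered by their change) in the 16 Ex5 libraries (columns, by time in min), each minus its mean over the 16; red is higher, blue is lower, and colours end at 1 and -1. Per1 repeats the 2 red stretches of Hes7 and Lfng. Of the 2 peaks, Lhx1 and Ephb3 are red at the first, and Irx3, Notch1 and Hoxd3 are reddest at the second.

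Several of the largest changes were in genes of no signalling list. Gse1, which encodes a chromatin-associated protein, read 138, 142 and 137 CPM, then 105, 97.8 and 93.9 CPM, then 136 and 145 CPM (1.41-fold, log2 0.50 ± 0.04, adjusted p = 9.39e-07). Its crests were of similar height, the spread within each block was small, and it rose in Ex4 by 0.32 (adjusted p = 4.17e-07). Lhx1, a homeobox gene of lateral and intermediate mesoderm, read 12.2, 14.4 and 10.8 CPM, then 5.24, 4.93 and 4.41 CPM, then 6.75 and 6.23 CPM (1.85-fold, log2 0.89 ± 0.12, adjusted p = 0.000427). It was highest at the first peak, and the early low libraries at 165 and 180 min (10.4 and 9.06 CPM) were above the second peak. The call was lost with the 5 peak libraries as 1 group (0.209). Ex4 showed the same shape at lower levels (6.24 to 6.77, then 3.17 to 3.79, then 4.59 to 4.92 CPM, log2 0.70, adjusted p = 0.000226). The other 6 tested genes of its list did not pass.

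Irx3, a homeobox gene of neural and other tissues, read 24.3, 23.7 and 26.2 CPM, then 21.1, 24.1 and 24.6 CPM, then 36.8 and 44.5 CPM (0.45 ± 0.07, adjusted p = 0.00308). The first peak overlapped the trough, and Irx3 was low early and high late, with 11.8 CPM at 165 min and 40.5 CPM at 425 min. In Ex4 it rose by 0.28 (adjusted p = 0.0343), with means of 16.8 CPM at the first peak, 16.9 CPM in the trough and 25.0 CPM at the second peak. There too the first peak was at trough level. The other 10 tested neural genes did not pass, with Pax6 at 10.3 to 13.7 CPM. Hoxd3 and Hoxd4, neighbours whose annotated spans overlap (chromosome 2, from 74711927 and 74711929), so that reads may be shared between them, rose by 0.33 ± 0.06 and 0.26 ± 0.06, the 2 of 26 Hox genes that passed. Hoxd3 read 32.5, 35.9 and 36.3 CPM, then 31.5, 32.5 and 33.0 CPM, then 44.3 and 49.9 CPM, so the first peak overlapped the trough. The first peak of Hoxd4 overlapped its trough too (95.7 to 111 against 82.8 to 98.7 CPM). Hoxd3 also read higher late in the course, with 25.0 CPM at 165 min and 45.1 CPM at 425 min. In Ex4 the changes of Hoxd3 and Hoxd4 were -0.14 and -0.16, neither past the test. The call of Hoxd3 was lost without the library at 385 min (0.0784), and that of Hoxd4 without any of those at 225, 240, 305, 325 or 385 min (highest 0.405), with the GC and length correction (0.0822) and in the fit of both time courses together (0.0960).

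The remaining genes named for their size were Rnf39 (0.58 ± 0.11), Skil, a SMAD repressor (0.46 ± 0.09), Col11a2 (0.44 ± 0.10) and Zbtb16 (0.42 ± 0.08), with adjusted p-values from 0.0104 to 0.0444 and every peak library above every trough library. Skil passed in Ex4 as well (0.31, adjusted p = 0.0343), and the other 3 did not. Zbtb16 read 9.32, 10.8 and 18.7 CPM at 165, 180 and 425 min, when Hes7 was low, the last above every peak library. All 4 calls were lost without the library at 385 min. Skil was also lost without that at 240 or 325 min, Rnf39 without that at 225 or 305 min, Zbtb16 without that at 305, 325 or 365 min, and Col11a2 without that at 225, 240, 305 or 325 min, with highest adjusted p-values of 0.0876 to 0.406. With the GC and length correction, Rnf39 (0.0748) and Col11a2 (0.331) did not pass. Col11a2 was also lost by limma-voom (0.062) and with a minimum of 5 CPM (0.0559). With outer low libraries and a quadratic time term, Col11a2 did not pass (0.104), nor did Fosl2 (0.0668), Ciart (0.202), Egr1 (0.169), Egr3 (0.0511) or Nkd1 (0.0804).

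Among the 15 genes that fell, Foxb1, a forkhead gene, read 121, 121 and 132 CPM, then 163, 178 and 176 CPM, then 161 and 163 CPM (1.21-fold, log2 -0.28 ± 0.04, adjusted p = 0.00205). Nearly all of it came with the first peak (-0.46 against -0.09 at the second). Cxcr4, a chemokine receptor gene that served as an endoderm marker, had the same shape: 29.5, 30.4 and 30.5 CPM, then 39.5, 45.5 and 49.9 CPM, then 41.2 and 39.0 CPM (-0.38 ± 0.06, adjusted p = 0.00459). Both passed as lower in Ex4 too (-0.18 and -0.29, adjusted p = 0.0267 and 0.0143), but there the first peak alone was low and the second was at trough level. The Ex4 means of first peak, trough and second peak were 124.6, 158.5 and 157.8 CPM for Foxb1. For Cxcr4 they were 28.2, 43.1 and 44.2 CPM. The other 5 tested endoderm genes did not pass. Without the library at 325 or 385 min, Cxcr4 did not pass (highest adjusted p = 0.0547).

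Hspa5, a chaperone gene of the endoplasmic reticulum, fell by a small amount, as did Dnajc3, a co-chaperone in the same compartment (-0.18 ± 0.04 and -0.19 ± 0.04, adjusted p = 0.0329 and 0.0386). Hspa5 read 1085, 1153 and 1163 CPM, then 1206, 1156 and 1152 CPM, then 978 and 906 CPM, so that the first peak overlapped the trough. The smaller calls at or above 5 CPM were Cited2 (-0.18), Mrpl35 (-0.23) and Tusc3 (-0.22). None of these 5 genes passed in Ex4, where their changes were between -0.09 and 0.02 on the log2 scale. All 5 were lost without the library at 225, 240, 305, 325 or 385 min, Mrpl35 and Hspa5 also without that at 285 min and all but Hspa5 without that at 365 min (highest adjusted p = 0.187 to 0.422). All but Cited2 were lost with the GC and length correction (0.0541 to 0.288). Hspa5 (0.831), Dnajc3 (0.392) and Tusc3 (0.280) were lost with the outer low libraries and a quadratic time term. Tusc3 was also lost with DESeq2 size factors (0.0501), by limma-voom (0.0556) and with a minimum of 5 CPM (0.0586). Thinning (0.0706) and 1 peak group with a linear time term (0.0606) ended its call too. In the stress and amino acid response list of 25 genes, Ddit4, an inhibitor of mTORC1, was the 1 that rose (415 to 465 CPM against 363 to 405 CPM, 0.20 ± 0.04, adjusted p = 0.0205). Its call was lost without the library at 225, 285, 325, 365 or 385 min (highest 0.155). Ddit4 read 427, 396 and 484 CPM at 165, 180 and 425 min, when Hes7 was low, the last above every peak library.

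In 10 of the 24 lists no gene passed by edgeR: anterior PSM and somite, pluripotency, YAP targets, hypoxia and glycolysis, G1/S, G2/M, cholesterol synthesis, retinoic acid, mitochondrially encoded genes and mRNA decay factors. They hold 150 tested genes, and over all genes 0.739% passed by edgeR. Of the 150 genes, 24 had an unadjusted p under 0.05, against 1300 of all 11769. DESeq2 and limma-voom each called 1 of the 150, in hypoxia and glycolysis. The median log2 changes of the G1/S and G2/M lists were -0.02 and -0.02. All 8 mitochondrially encoded genes were below 0, with a median of -0.11.

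Ex4 offered the same comparison in libraries that had no part in choosing Ex5. Its blocks were placed at the times nearest to its own Hes7 peaks and trough, so Hes7 is a description there too. They were the first peak at 200, 215 and 230 min, the trough at 260, 275 and 292 min and the second peak at 327, 345 and 365 min, 9 libraries of 23.0 to 26.0 M counts. Hes7 read 261, 284 and 272 CPM, then 168, 153 and 188 CPM, then 273, 279 and 254 CPM, a log2 change of 0.67 ± 0.04 that the choice of blocks favours. Of the other genes, 31 were higher (0.263%) and 24 lower (0.204%), and every peak library lay above every trough library for 138 genes (1.17%) and below for 127 (1.08%). Of the 72 genes higher in Ex5, 63 (87.5%) had a change above 0 in Ex4, against 46.3% of the 5677 genes with a change above 0 in Ex5, and 21 passed there in the same direction. Of the 15 lower genes, 12 (80.0%) were below 0 in Ex4, against 45.8%, and 8 passed. The changes were smaller in Ex4, with a median of 0.13 against 0.33 on the log2 scale for the 72 genes and -0.19 against -0.26 for the 15. The genes were picked by their values in Ex5 and not by those in Ex4.

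**Figure D4:**
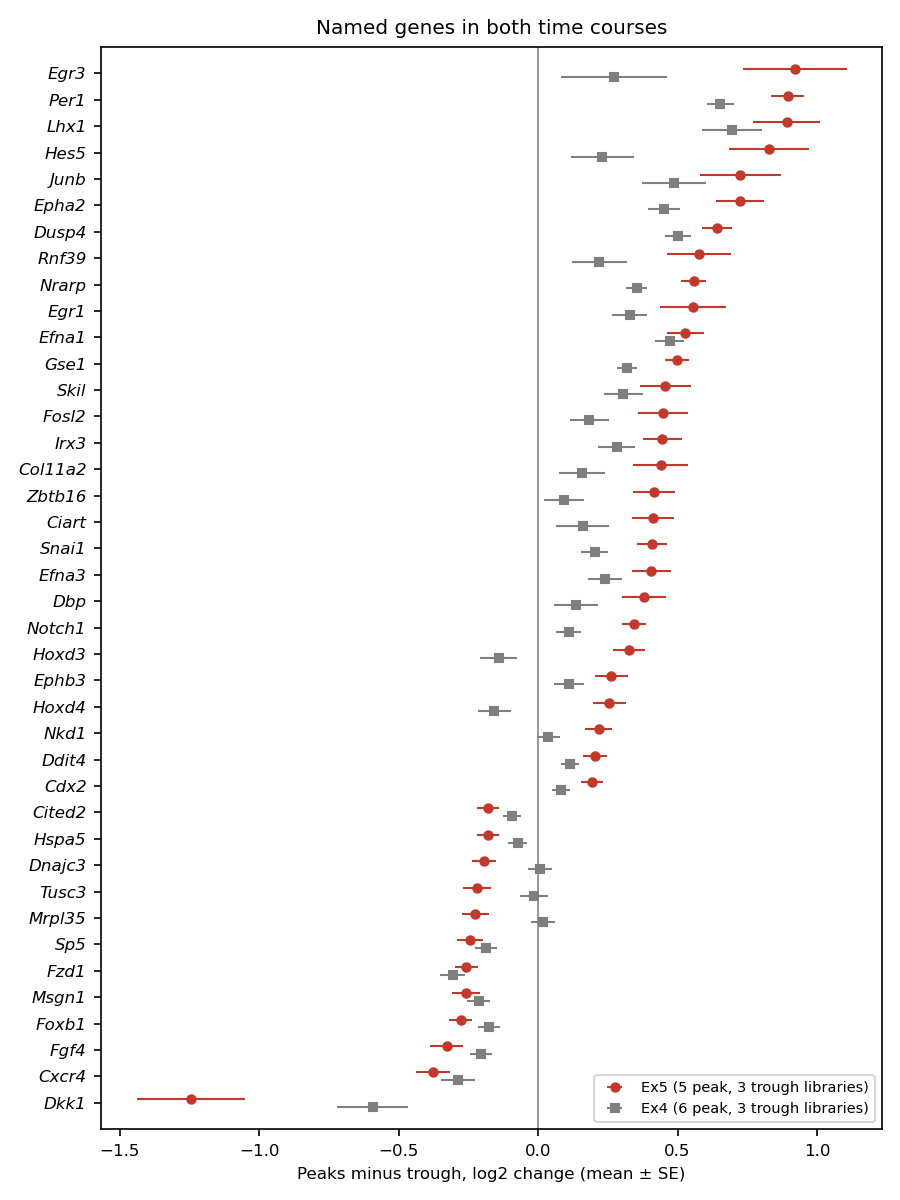
Log2 change, peaks minus trough, with its SE for the 40 named genes in Ex5 (red circles) and Ex4 (grey squares). Most grey squares lie on the same side of 0 as the red circles and nearer to it; Fzd1 is slightly further from 0 in Ex4, and Hoxd3, Hoxd4, Mrpl35 and Dnajc3 lie on the other side, the last 2 close to 0.

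The difference between the time courses was tested itself. No gene passed (0 of 11769, 0.0%, edgeR), and 1308 had an unadjusted p under 0.05. DESeq2 gave 2 and limma-voom 0. The count rose to 112 without the Ex5 library at 285 min, to 62 without that at 255 min, to 26 without the Ex4 library at 260 min and to 1 without that at 215 min. The smallest adjusted p, 0.0911 for a log2 difference of 0.62, belonged to Hspg2, which encodes perlecan, a proteoglycan of the basement membrane, and which was chosen here after its values were seen. Hspg2 read 134, 129.9 and 109 CPM, then 126, 96.2 and 92.9 CPM, then 144 and 153 CPM in Ex5 (0.37 ± 0.08, adjusted p = 0.0284), and it fell in Ex4 (-0.24, adjusted p = 0.0212). Of the 87 genes, Hspg2 was the 1 that passed in the opposite direction in Ex4. Its Ex5 call was lost without the library at 225, 240, 305, 325, 365 or 385 min (highest adjusted p = 0.268), by DESeq2 (0.326), with the GC and length correction (0.193) and with the outer low libraries and a quadratic time term (0.243).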

How the data were processed

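RNA-seq libraries from 32 dishes were analysed, 16 from each time course. Per the labels' protocols, RNA was extracted from frozen dishes and 200 ng of total RNA went into a strand-specific mRNA library kit. The authors deposited raw read counts per gene, which the submitters' processing notes tie to the aligner HISAT2 (2.1.0), the counter HTSeq (0.6.1), the trimmer cutadapt (1.14), bcl2fastq (2.17.1.14) and mm10. Neither the gene annotation nor whether strand was used in counting is given in the sources used here. Genes that overlap may therefore share counts. In the table of 21886 rows, 3706 hold only 0, and all columns were used (0 left out).

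Counts were scaled with TMM factors over the 32 libraries (edgeR 4.0.16, R 4.3.3). A gene was kept where 16 or more libraries reached 1 CPM, which left 11772. Each block of libraries got its own mean in edgeR's quasi-likelihood model, on the 8 Ex5 or 9 Ex4 libraries, and the contrast was the mean of both peak blocks minus the trough. The difference between the time courses came from a joint fit of these libraries. P-values were adjusted over all genes (Benjamini-Hochberg, 0.05). Log2 values on the plots use a prior of 0.5 CPM. Hes7, Lfng and luciferase (3 of the 11772) were in the fit and the adjustment but were set aside as results. Positions come from GENCODE M21 on mm10, and promoters from RefSeq on GRCm38.p6. Depth per library was 16.1 to 29.5 M counts, and its effect was checked by thinning counts to equal depth.

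Named genes were those past the Ex5 test that averaged 5 CPM or more, with no overlap between peaks and trough and no predicted gene name, at most 15 in each direction by size (15 higher, 8 lower), up to 4 members past the test from each of 24 lists, and members of the Notch, Hes, FGF and Wnt lists. Others were chosen after their values were seen. The members, lists and comparison were chosen with earlier results of these data known. The alternatives were DESeq2 1.42.0, limma-voom 3.58.1, other size factors, other filters, thinning, other time terms, each library left out and, added after seeing the data, a correction by splines of GC content and transcript length (4 degrees of freedom each). The code was tested on simulated counts.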

Additional observations from a re-analysis of the deposited data

How the results depend on the processing

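For the 40 named genes, 758 values were computed under the alternatives. Of these 579 stayed past the threshold in the same direction, 179 no longer passed and 0 changed sign. In fits that each left out 1 of the 8 Ex5 libraries, 14 of the 40 genes passed every time, and Per1, Epha2, Dusp4, Efna1, Gse1 and Snai1 passed in every fit that was run. Over those fits the Ex5 counts ran from 13 to 130 genes higher and 3 to 52 lower, the Ex4 counts from 12 (without the library at 275 min) to 38 (without that at 260 min) higher and 6 to 89 lower, and the count for the difference between the time courses from 0 to 112. A fit with a lone second-peak library assumes that it varies like the other blocks.

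Without a filter on low counts, 175 genes were higher and 77 lower in Ex5 (69.4% higher against 82.8%), 53 and 94 in Ex4, and 160 differed between the time courses. With all 5 peak libraries as 1 group, where the difference between the 2 peaks enters the residual spread, 6 were higher and 0 lower in Ex5, with 755 genes at an unadjusted p under 0.05. With the GC and length correction, 29 were higher in Ex5 and 48 in Ex4. With both time courses in 1 fit, which shares the spread, 40 were lower in Ex5 (70.4% of calls higher), and 20 were higher and 8 lower in Ex4. DESeq2 gave 20 and 14 in Ex4 and 2 for the difference, and thinned counts gave 1 for the difference. Where no value is given for the reason of a shift, the cause was not tested. DESeq2 size factors, DESeq2, limma-voom, a minimum of 5 CPM, thinning, a linear time term and the outer low libraries with a quadratic term kept the Ex5 counts between 62 and 76 higher and 11 and 18 lower, and 51 of the 72 and 11 of the 15 genes passed with the last of these. No paired analysis was possible because the labels give times and no replicate numbers shared between blocks. Depth of 16.1 and 17.7 M counts in only 2 libraries limits the second peak.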

Other observations

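The genes around Hes7 were looked at because Per1 lies near it, a choice made after the values were seen. Within 100 kb on either side on chromosome 11 the annotation has 11 protein-coding genes, of which 8 were tested. In each time course 2 passed, Per1 and Borcs6, which encodes a subunit of the BORC complex that positions lysosomes. Over all genes, 0.739% passed in Ex5, and 0.263% were higher and 0.204% lower in Ex4. Borcs6 (69059717 to 69061578, plus strand, 58.8 kb from Hes7) read 26.0, 25.1 and 26.4 CPM at the first peak, 19.8, 23.9 and 23.6 CPM in the trough and 28.2 and 30.3 CPM at the second peak, with every peak library above the trough. Its log2 change was 0.29 ± 0.07 in Ex5 (adjusted p = 0.0409) and 0.31 in Ex4 (adjusted p = 0.00808). The Ex5 call was lost with the GC and length correction (0.280) and without the library at 225, 240, 285, 325, 365 or 385 min (highest adjusted p = 0.284). Between Borcs6 and Per1 lie Tmem107, at 0.05 ± 0.08, and Vamp2, at 0.21 ± 0.06 (adjusted p = 0.150), and neither passed. Aurkb, at 68.7 kb, differed by -0.01 ± 0.04.

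Bcor, Rest and Erf, in no fixed list, also passed and are given here as single genes, chosen after their values were seen. Bcor, a corepressor gene, read 73.6, 73.8 and 72.5 CPM, then 68.6, 62.6 and 64.8 CPM, then 85.7 and 92.2 CPM (0.31 ± 0.04, adjusted p = 0.00119). It passed without any of the 8 libraries, but not with the outer low libraries and a quadratic time term (0.164). Rest, a repressor of neural genes, read 84.3 to 99.2 CPM at the peaks and 75.9 to 77.5 CPM in the trough (0.26 ± 0.05, adjusted p = 0.0177) and rose in Ex4 by 0.25 (adjusted p = 0.000226). Erf, an ETS repressor that ERK inactivates, read 119.7 to 139 CPM against 106 to 111 CPM (0.24 ± 0.04, adjusted p = 0.00438) and rose in Ex4 by 0.19 (adjusted p = 0.00542). The Rest call was lost without the library at 225, 305, 325 or 385 min (highest 0.145) and the Erf call without that at 385 min (0.0520).

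The GC content of a gene went with its change in Ex5. From the quartile of genes poorest in GC to the richest, the median log2 changes were -0.0378, -0.0146, 0.00447 and 0.0411, and 1, 4, 18 and 49 of the 72 higher genes lay there. In Ex4 the same quartiles had medians of 0.0153, 7.68e-05, -0.00393 and -0.00858, the opposite order. The 43 higher genes that did not pass with the correction had a median transcript length of 5653 bases, and the 29 that did 3505 bases. Among the 43 were the genes of the nuclear proteins Cic (0.22 to 0.06 on the log2 scale with the correction), Spen (0.23 to 0.08), Tle3 (0.18 to 0.10) and Kmt2d (0.33 to 0.14).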
